A study of Homo sapiens with 22 samples.

Results

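The 5 libraries described here are the control libraries of the hairpin and Nexturastat A experiments, out of 22 RNA sequencing libraries in all. They were divided by the raw count of CDKN2A. The CDKN2A-positive controls are the libraries labelled shCtrl replicates 1 and 2, and the CDKN2A-negative controls are the libraries labelled shCtrl replicate 3, Ctrl replicate 1 and Ctrl replicate 2. Because measured values divided the libraries, every difference between these sets is given as a description and none was tested.

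All 22 libraries are labelled MDA-MB231. This established human line came from a triple-negative breast cancer, grows as adherent cells and is commonly classed as basal B. The shCtrl cells carried a control hairpin and were sampled at day 0. Ctrl cells had no hairpin and are labelled wild type, with DMSO as their treatment, sampled at day 2. None of the 5 libraries received a hairpin against HDAC6 or a deacetylase inhibitor. The hairpin experiment also holds shHDAC6-1 and shHDAC6-2, with 3 libraries each. Nexturastat A, an HDAC6 inhibitor, was given at 7.65 µM for 2 days to the cells of 2 libraries, and a further experiment holds 3 libraries each of DMSO, HPOB and Tubastatin A at day 2. The sources used here do not give the promoter and vector of the hairpins, or whether replicates are separate cultures or clones, so p-values measure only the spread between these libraries. The CDKN2A-positive controls held 52.76 and 60.85 M counts (M, mega) and the CDKN2A-negative controls 60.2, 61.55 and 64.84 M.

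A cell line keeps much of the transcription factor program of the tissue it came from. HOX genes encode homeodomain factors that record position along the body axis and are held on or off by Trithorax and Polycomb proteins. LIN28B and IGF2BP1 bind RNA in embryonic cells and are mostly silenced after birth, and PAX2 with SALL1 and WT1 guides the early kidney. CDKN2A encodes the cell cycle inhibitor p16 and the p53 activator ARF, and the MDA-MB-231 line is known for a homozygous deletion of it.

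The 5 genes used as markers set the libraries apart with almost no signal on the low side. Levels are CPM, which are counts scaled to a common library size, here with TMM factors over the 5 libraries, and the error is the standard deviation (SD) within a set. CDKN2A, at chr9:21967752-21995324 on GRCh38, stood at 137 and 140 CPM in shCtrl replicates 1 and 2 and at 0 in shCtrl replicate 3, Ctrl replicate 1 and Ctrl replicate 2. IRS4, an adaptor of insulin receptor signalling at chrX:108719946-108736563, had 309 and 348 CPM in the CDKN2A-positive controls and 0 in each of the CDKN2A-negative controls. IGF2BP1, which stabilises mRNAs of growing embryonic cells and lies at chr17:48996558-49056145, had 258 and 311 CPM against 0 in shCtrl replicate 3, 0.0175 in Ctrl replicate 1 and 0.207 in Ctrl replicate 2. The high values are thus those of the same pair of shCtrl libraries in each case. LIN28B, which blocks maturation of let-7 microRNAs (chr6:104937026-105083332), had 93.7 and 74.2 CPM against 0, 0 and 0.0345 CPM. PAX2 (chr10:100735396-100829944) had 8.65 and 10.3 CPM against 0 in all 3 others. Against a floor of 3 counts summed over the CDKN2A-negative controls, CDKN2A was at least 8168-fold, IRS4 at least 19320-fold and PAX2 at least 558-fold higher in the CDKN2A-positive controls. The libraries labelled shCtrl replicates 1 and 2 therefore hold abundant mRNA of a gene that the labelled line is known to lack. HDAC6, the gene of the study, did not follow this division as steeply. It stood at 43.8 and 50.6 CPM in the CDKN2A-positive controls and at 26.4, 31.6 and 30.3 CPM in shCtrl replicate 3 and Ctrl replicates 1 and 2.

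The letters upstream of 3 genes that differ widely between the sets are shown, since IRS4 and UCHL1 were at 0 in every CDKN2A-negative control and CAV1 was far lower in the CDKN2A-positive controls. Each line gives the 250 bases before the RefSeq start of the gene on GRCh38.p14, read 5′ to 3′ on the strand of the gene, with every CG dinucleotide in capitals. The windows are chrX:108736564-108736813 on the minus strand, chr4:41256678-41256927 on the plus strand and chr7:116524759-116525008 on the plus strand.
IRS4: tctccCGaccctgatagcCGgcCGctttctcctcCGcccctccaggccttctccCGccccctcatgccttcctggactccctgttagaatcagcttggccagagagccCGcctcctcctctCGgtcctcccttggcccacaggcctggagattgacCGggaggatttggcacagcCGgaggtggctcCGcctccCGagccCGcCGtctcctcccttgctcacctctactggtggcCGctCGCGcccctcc
UCHL1: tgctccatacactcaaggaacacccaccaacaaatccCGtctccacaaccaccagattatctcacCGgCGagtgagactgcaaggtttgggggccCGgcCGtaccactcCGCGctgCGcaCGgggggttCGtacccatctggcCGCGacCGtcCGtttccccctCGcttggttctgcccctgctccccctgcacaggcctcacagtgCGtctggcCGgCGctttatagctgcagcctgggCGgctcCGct
CAV1: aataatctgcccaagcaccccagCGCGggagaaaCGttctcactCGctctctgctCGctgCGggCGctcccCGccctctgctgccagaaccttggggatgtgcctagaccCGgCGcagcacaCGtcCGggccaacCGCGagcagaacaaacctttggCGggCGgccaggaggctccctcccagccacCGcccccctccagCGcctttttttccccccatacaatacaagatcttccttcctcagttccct
The windows hold 16, 20 and 18 CG dinucleotides, the letters that can carry DNA methylation, and the same window of the marker PAX2 holds 10. Of all 27195 promoters in the RefSeq table, 42.8% hold at least 15 in a window of the same length. Among the 10980 matched genes at 1 CPM or more in a set, 71.8% do, so such counts are common in expressed genes. A comparison of CG counts between the genes of the sets is void, because only 1094 of the 1685 genes higher in the CDKN2A-positive controls and 395 of the 608 lower genes matched an entry.

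A gene was counted as parting the sets when the ranges of the sets did not overlap, the higher set averaged at least 1 CPM and the set means differed at least 8-fold. Of 15029 genes at 1 CPM or more in a set, 1685 were higher in the CDKN2A-positive controls (11.2%) and 608 were lower (4.05%). These shares are the background for every list count below. The markers IGF2BP1, LIN28B, PAX2 and IRS4 are counted in their lists, although their parting was known beforehand. At any fold, 78.3% of genes had sets that did not overlap. MSRA lay just inside the threshold at 8.008-fold and SH3TC1 just outside at 7.989-fold. Pairs of libraries within a set differed far less than pairs across sets. No gene differed over 8-fold between shCtrl replicates 1 and 2 or between the Ctrl replicates, and 44 or 76 genes did between shCtrl replicate 3 and a Ctrl library. Across sets, 2215 to 2375 genes differed over 8-fold in the 6 pairs. Across genes, the correlation of log2 CPM was 0.677 to 0.703 between sets and 0.951 to 0.994 within them, and genes are not independent replicates. Chromosome medians of the log2 ratio, over 9691 genes at 5 CPM or more in both sets, ran from -0.72 on chromosome 15 to 0.47 on chromosome X.

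**Figure D1:**
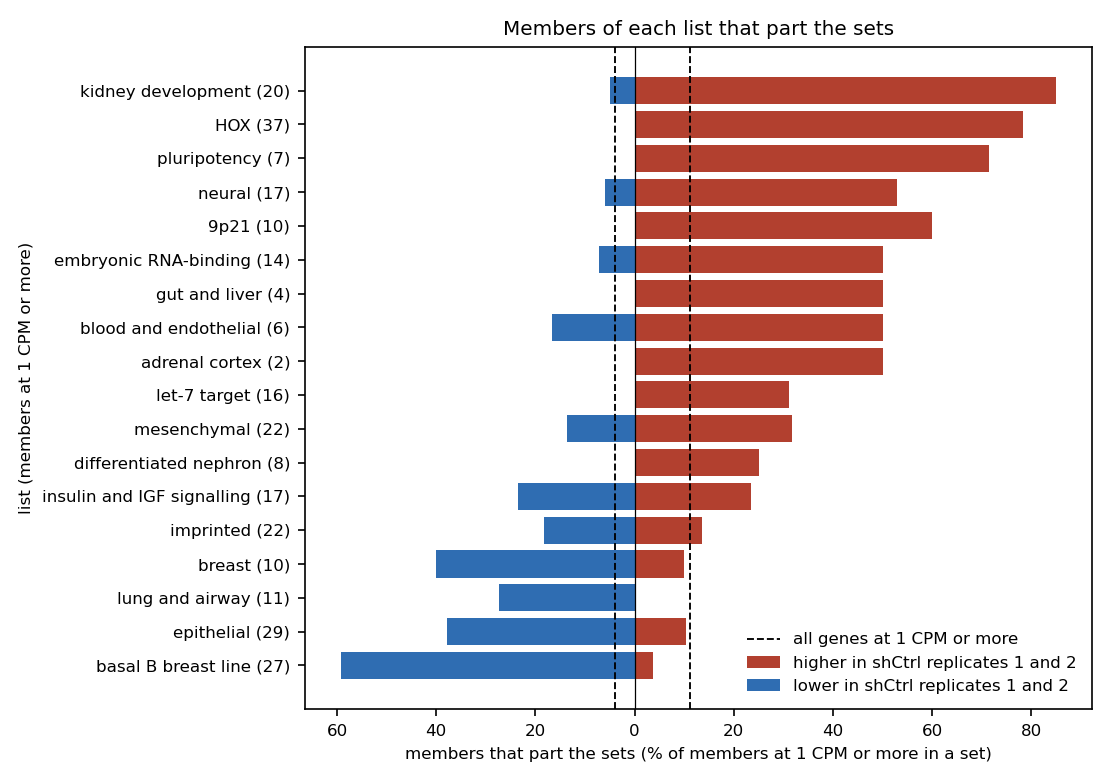
Bars give the percentage of a list's members at 1 CPM or more that part the sets, to the right where CDKN2A-positive controls are higher and to the left where they are lower; the number of members at 1 CPM or more stands after each name, and dashed lines mark the 11.2% and 4.05% of all genes. The kidney development and HOX lists reach farthest to the right and the basal B list farthest to the left.

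HOX genes. Of 39 HOX genes measured, 37 reached 1 CPM in a set, and 29 of those parted the sets with the higher level in the CDKN2A-positive controls, beside 11.2% of all genes. None was lower in them by this rule. The list's median log2 ratio was 7.26, beside 0.02 over all genes, with genes at 0 entered at their lower bound. Summed over the list, levels were 899.9 and 904.6 CPM in the CDKN2A-positive controls and 62.85 to 84.74 CPM in the others. The HOXA cluster on chromosome 7, whose members pattern the limb, kidney and reproductive tract, parted in all 11 of its genes. HOXA5 had 53.1 and 54.4 CPM against 0, 0 and 0, and HOXA10 had 45.97 and 42.95 CPM against 0, 0 and 0. In the CDKN2A-negative controls, HOXA9 through HOXA11-AS formed a run of 5 genes with at most 3 counts each over all 3 libraries, neighbours among the genes at 1 CPM or more in the CDKN2A-positive controls. HOXA13, at the 5′ end of the cluster, was the exception, with 9.55 and 8.2 CPM against 0.229 in shCtrl replicate 3, 1.90 in Ctrl replicate 1 and 1.00 in Ctrl replicate 2.

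The other clusters were divided less evenly. All 9 HOXB genes at 1 CPM parted the sets, led by HOXB6 with 73.2 and 75.1 CPM against 0, 0.0698 and 0 in shCtrl replicate 3 and Ctrl replicates 1 and 2. HOXB9 kept 6.11, 16.96 and 15.3 CPM in the CDKN2A-negative controls, against 113 and 114 CPM. In HOXC, 4 of 9 genes parted, and HOXC5, HOXC6, HOXC8, HOXC10 and HOXC13 were transcribed in both sets. HOXC10 had 26.8 and 26.0 CPM against 3.30, 5.83 and 5.60 CPM. HOXD broke within the cluster. HOXD10 had 31.3 and 36.1 CPM against 0, 0 and 0, and HOXD13 had 102 and 95.1 CPM against 0.0327, 0.384 and 0.345. HOXD3, toward the other end of the same cluster, ran the opposite way, with 4.41 and 4.46 CPM against 12.9, 15.4 and 14.0 CPM, and HOXD1 and HOXD4 were also higher in the CDKN2A-negative controls, each by less than 8-fold. Many HOX genes overlap antisense transcripts, and the sources used here do not give the strand setting of the counting, so reads of overlapping partners cannot be told apart.

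**Figure D2:**
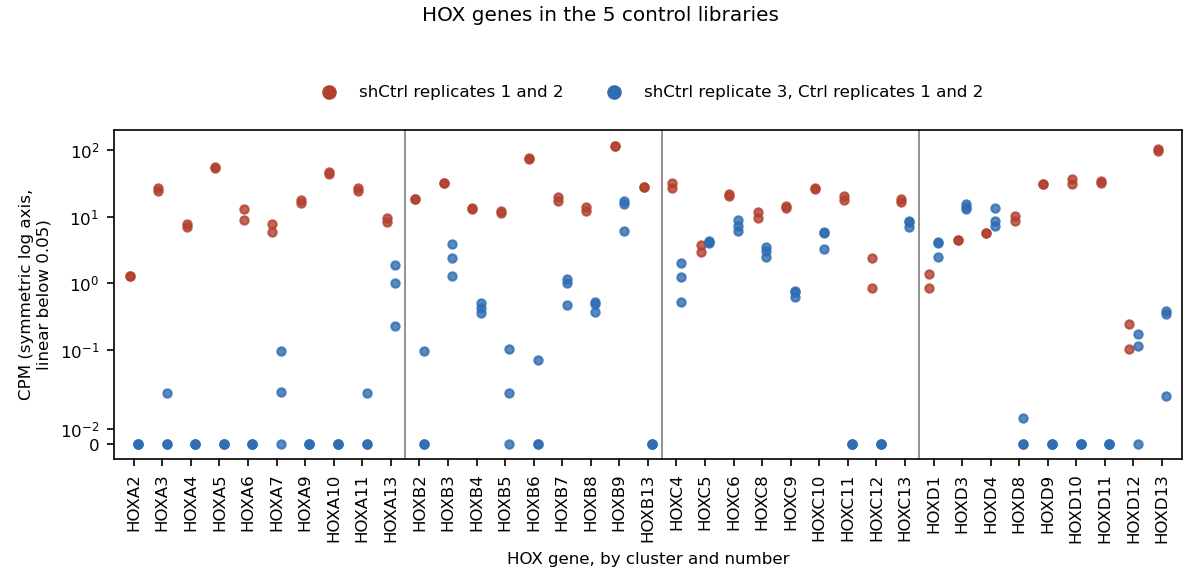
Each point is the CPM of a HOX gene (those plotted, not every gene counted above) in a library, on a symmetric log axis that is linear near 0, with the 2 CDKN2A-positive controls in red and the 3 CDKN2A-negative controls in blue; grey lines separate the clusters. Blue points lie at or near 0 over most of HOXA and from HOXD8 to HOXD11, and the colours meet or cross over HOXC5 and from HOXD1 to HOXD4.

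Embryonic RNA-binding genes. Of 20 measured, 14 reached 1 CPM, 7 were higher in the CDKN2A-positive controls and 1 was lower, with a median log2 ratio of 3.95. Besides the markers IGF2BP1 and LIN28B, the higher members included ELAVL2, a neuronal ELAV protein, with 12.0 and 10.0 CPM against 0, 0 and 0. TRIM71, an RNA-binding ubiquitin ligase of early embryos, had 8.82 and 12.1 CPM against 0, 0.0349 and 0 CPM, a ratio of counts of 933 with a 95% counting interval of 258 to 7710. MSI1, RBM20 and CPEB1 parted in the same direction. RBM24, a splicing factor of muscle and heart, was the member on the other side, with 2.47 and 1.66 CPM against 46.1, 48.4 and 45.6 CPM. The close relatives of IGF2BP1 did not follow it. IGF2BP3 had 83.8 and 76.5 CPM against 93.4, 193 and 185 CPM, and IGF2BP2 averaged 62.8 ± 6.16 (SD, n = 2) against 143 ± 37.9 (SD, n = 3).

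The let-7 microRNAs, which LIN28B holds back, silence several genes of this kind. Of 16 known let-7 targets, all reached 1 CPM. By the rule 5 were higher in the CDKN2A-positive controls (31.2%) and none was lower, beside 11.2% and 4.05% of all genes. The 5 were MYCN, TRIM71, IGF2BP1, LIN28B and CCND2, a G1 cyclin with 158 and 194 CPM against 0, 0.0349 and 0.0345 CPM. Of these, IGF2BP1 and LIN28B are markers of the sets, so their share of the count was known beforehand. The other 11 did not part, and the median log2 ratio of the list was 1.29. Summed over the list, however, levels were lower in the CDKN2A-positive controls, at 1529 and 1643 CPM against 2266 to 3861 CPM. HMGA2, the best known let-7 target, lay on the other side below the threshold, with 60.7 and 51.9 CPM against 183, 281 and 245 CPM. The microRNAs themselves were not measured, but long transcripts that contain their genes were. These hosts were chosen after their values were seen. MIR100HG, which spans let-7a-2 with miR-100 and miR-125b-1 (chr11:122028329-122422871), had 2.50 and 2.31 CPM against 56.6, 199 and 157 CPM. MIRLET7BHG, which spans let-7a-3 and let-7b (chr22:46085997-46113928), had 0.313 and 0.548 CPM against 6.35, 5.43 and 3.83 CPM. Among these 5 libraries, both hosts were thus lower where LIN28B was high. Outside them the pairing was not uniform. In shHDAC6-1 replicate 3, LIN28B was at 0.0289 CPM, MIR100HG at 4.45 CPM and MIRLET7BHG at 7.99 CPM, on the scale fitted over all 22 libraries. A link between LIN28B and the hosts was not tested. The let-7 RNAs encoded in them share the seed in capitals (bases 2 to 8), and are printed from RefSeq on GRCh38.p14 to show that both hosts carry the same let-7 seed.
let-7a-5p: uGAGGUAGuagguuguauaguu
let-7b-5p: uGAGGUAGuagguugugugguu
Host transcript counts do not measure the mature RNAs.

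Kidney genes. Of 24 kidney development genes measured, 20 reached 1 CPM, with a median log2 ratio of 7.30. In every CDKN2A-negative control, 8 of the 20 were at 0, beside 439 of all 15029 genes at 1 CPM or more in a set. By the rule 17 were higher in the CDKN2A-positive controls (85.0%) and 1 was lower (5.0%), beside 11.2% and 4.05% of all genes. The 17 include the marker PAX2. SALL1, a zinc finger factor of the ureteric bud and nephron progenitors, had 47.6 and 54.7 CPM against 0, 0 and 0. FOXD1, a forkhead factor of the kidney stroma, had 39.8 and 44.1 CPM against 0, 0 and 0. WT1, required for the podocyte lineage, had 8.28 and 6.07 CPM against 0, 0 and 0. These factors of the ureteric, progenitor, stromal and podocyte compartments lay on the same side. SIX2, which keeps nephron progenitors undifferentiated, had 45.3 and 53.3 CPM against 1.54, 1.13 and 1.48 CPM. OSR1, an early marker of the same mesoderm, was the reverse, with 0.139 and 0.0913 CPM against 5.85, 8.25 and 10.9 CPM. PAX8 was lower, at 1.01 and 0.974 CPM against 3.10, 3.595 and 3.83 CPM. Among markers of the differentiated nephron, 8 of 20 measured reached 1 CPM and 2 parted, LRP2, the endocytic receptor megalin, with 27.2 ± 2.24 (SD, n = 2) against 1.91 ± 0.978 CPM (SD, n = 3), and the glucose carrier SLC5A2 with 2.35 against 0.201 CPM. PODXL, a podocyte sialomucin also made by many carcinoma lines, was lower at 47.9 and 55.3 CPM against 235, 362 and 317 CPM.

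Neural genes. Of 33 measured, 17 reached 1 CPM, with a median log2 ratio of 5.25. Of the 17, 9 were higher in the CDKN2A-positive controls (52.9%) and 1 was lower (5.88%), beside 11.2% and 4.05% of all genes. UCHL1, a deubiquitinase abundant in neurons, had 290 and 271 CPM against 0, 0 and 0, which is at least 16510-fold. The neurofilament subunits NEFL (76.1 and 76.4 CPM) and NEFM (59.8 and 67.4 CPM) were likewise at 0 in all 3 CDKN2A-negative controls. NCAM1, a neural adhesion molecule also made by developing kidney, had 74.7 and 90.4 CPM against 0, 0 and 0.0689 CPM. The neural list did not move as a block. TUBB3 had 24.3 and 25.7 CPM against 49.9, 31.0 and 35.2 CPM, and SCG2, a secretory granule protein, was lower at 0.139 and 0.213 CPM against 1.60, 3.63 and 4.50 CPM. Of genes associated with pluripotent cells, 5 of the 7 at 1 CPM were higher (71.4%) and none was lower. SOX2 had 10.8 and 12.9 CPM against 0.0327, 0.1396 and 0.241 CPM, and POU5F1, at 1.39 and 1.61 against 0.327, 0.541 and 0.362 CPM, did not part. Among adrenal cortex genes, SULT2A1 was the single member of 2 at 1 CPM that parted, at 1.42 and 1.25 CPM against 0, 0 and 0. In the gut and liver list, CDX2 and FOXA3 parted of 4 at 1 CPM, and CDX2, an intestinal homeobox factor, had 37.2 and 41.9 CPM against 0, 0 and 0. Of the blood and endothelial markers, 6 of 18 measured reached 1 CPM, 3 were higher, among them CD74 at 1.63 and VWF at 1.02 CPM on average, and PECAM1 was lower.

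Epithelial genes. Here the balance lay the other way. Of 36 measured, 29 reached 1 CPM, 3 were higher in the CDKN2A-positive controls and 11 were lower, beside 4.05% of all genes, with a median log2 ratio of -2.12. Summed levels were 1175 and 1360 CPM against 4355 to 5889 CPM. KRT7, a keratin of simple epithelia, had 30.9 and 35.0 CPM against 903, 450 and 473 CPM. KRT80 had 3.09 and 3.12 CPM against 147, 119 and 130 CPM, and ITGB4, the hemidesmosome integrin, had 41.9 and 62.4 CPM against 442, 1383 and 1069 CPM. On average KRT7 and ITGB4 were each lower by 18.5-fold and KRT80 by 42.5-fold. KRT8 and KRT18 were lower by 3.15-fold and 4.68-fold and so did not part. CDH1, the adhesion molecule E-cadherin that MDA-MB-231 is known to silence, was on the other side, with 5.02 and 5.64 CPM against 0, 0.175 and 0.207 CPM. LAMA3 and GRHL1 parted with it, while EPCAM was at 2.72 to 6.35 CPM in all 5 libraries. CDH1 and LAMA3 were not confined to the CDKN2A-positive controls. On the scale fitted over all 22 libraries, CDH1 was at 4.144, 5.434 and 4.775 CPM with DMSO. It was at 4.927 and 5.602 CPM in shCtrl replicates 1 and 2. LAMA3 was at 91.83, 90.31 and 102.5 CPM with DMSO, above 26.19 and 29.96 CPM in those shCtrl libraries. GRHL1 was low with DMSO, at 0.884, 1.304 and 0.9745 CPM against 16.52 and 15.02 CPM.

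Mesenchymal genes were split. Of 22 at 1 CPM, 7 were higher (31.8%) and 3 lower (13.6%) in the CDKN2A-positive controls, beside 11.2% and 4.05% of all genes. The median log2 ratio was 1.09. TWIST1, a basic helix-loop-helix inducer of the mesenchymal state, had 19.8 and 22.5 CPM against 0, 0 and 0. CDH2, or N-cadherin, had 56.6 and 60.6 CPM against 0.0327, 0.297 and 0.327 CPM. COL6A3 was lower, with 21.01 and 22.9 CPM against 200, 281 and 244 CPM, whereas its partner chains COL6A1 and COL6A2 had log2 ratios of 0.04 and 0.14. VIM, the mesenchymal intermediate filament, was abundant throughout, with 674 and 596 CPM against 2020, 2293 and 2250 CPM.

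Of imprinted genes, 3 of 22 at 1 CPM were higher (13.6%) and 4 lower (18.2%) in the CDKN2A-positive controls, beside 11.2% and 4.05% of all genes. PLAGL1, a growth-restraining zinc finger factor expressed from the paternal allele, had 56.6 and 55.1 CPM against 0, 0.0698 and 0 CPM. IGF2, the fetal growth factor, was low on both sides, at 1.25 and 2.18 CPM against 0, 0 and 0. PEG10, a retrotransposon-derived placental gene, was the reverse, with 14.3 ± 1.03 CPM (SD, n = 2) against 418, 462 and 470 CPM, and MEST had 1.44 and 1.19 CPM against 33.3, 47.8 and 49.5 CPM. GRB10 was level, at 128 and 145 CPM against 132, 142 and 135 CPM. In insulin and IGF signalling, 4 genes of 17 at 1 CPM (23.5%) lay on each side. Among the receptor adaptors, IRS4 was present where IRS1 was low, and IRS1 had 14.9 ± 2.67 CPM (SD, n = 2) against 166, 178 and 186 CPM. The receptor itself did not divide the sets: IGF1R had 95.1 and 122 CPM against 94.8, 126 and 115 CPM. The binding proteins that hold IGFs outside the cell were exchanged, with IGFBP2 at 113 ± 10.2 (SD, n = 2) against 4.17 ± 0.858 CPM (SD, n = 3) and IGFBP4 at 35.4 ± 2.62 against 1151 ± 120 CPM.

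Genes of basal B breast lines. The list was chosen with earlier results of these data known, so its counts describe the sets and do not check the label of the line. Of 28 measured, 27 reached 1 CPM, with a median log2 ratio of -3.47. In the CDKN2A-positive controls 16 were lower (59.3%, beside 4.05% of all genes). There 1 gene, SPOCK1, was higher (3.7%, beside 11.2%). CAV1, the coat protein of caveolae whose upstream letters are shown above, had 28.3 and 25.7 CPM against 923, 707 and 844 CPM. AXL, a receptor tyrosine kinase of invasive lines, had 27.1 and 33.7 CPM against 905, 835 and 768 CPM, and CD44 had 19.2 and 19.9 CPM against 410, 358 and 353 CPM. All 3 belong to the basal B list and were present in each of the 5 libraries, at mean levels at least 19.1-fold lower in the CDKN2A-positive controls. The CDKN2A-negative controls also held genes of other epithelia. NKX2-1, a factor of lung and thyroid, had 15.95 and 15.68 CPM against 63.8, 67.9 and 55.7 CPM, and the airway mucin MUC5AC had 4.06 and 8.06 CPM against 184, 258 and 169 CPM. Of the lung and airway list, 3 of 11 at 1 CPM were lower in the CDKN2A-positive controls (27.3%) and none was higher. No surfactant protein gene averaged 1 CPM in a set. Of the breast list, 4 of 10 were lower and 1, FOXC1, was higher. AGR2, a secretory pathway isomerase, had 1.79 and 1.16 CPM against 24.5, 54.9 and 57.1 CPM, whereas GATA3, the luminal factor, was at 40.9 and 43.8 CPM against 6.58, 4.94 and 5.84 CPM.

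Around CDKN2A, genes were read in chromosome order on the short arm of chromosome 9. MLLT3 had 29.8 and 31.6 CPM against 15.5, 22.5 and 23.9 CPM, and FOCAD, the next gene (chr9:20655625-20995950), had 33.0 and 39.3 CPM against 3.46, 3.35 and 4.19 CPM, or 10.1% of the higher set. KLHL9, MTAP, CDKN2A and CDKN2B-AS1 then formed a run with no more than 2 counts in any CDKN2A-negative control. MTAP, which salvages methionine and adjoins CDKN2A, had 34.0 and 29.7 CPM against 0, 0 and 0.0345 CPM, a ratio of counts of 2797 with a counting interval of 774 to 23100. CDKN2B, the neighbouring p15 inhibitor gene (chr9:22002903-22009313), had 6.70 and 7.74 CPM against 0, 0 and 0.0689 CPM. Expression resumed on the far side, where TUSC1 had 19.5 and 21.9 CPM against 9.54, 6.07 and 6.41 CPM and PLAA 54.5 and 48.2 CPM against 51.1, 58.6 and 67.0 CPM. The 3 DMSO libraries, which were not used to divide the sets, held the same gap: KLHL9, MTAP, CDKN2A, CDKN2B-AS1, CDKN2B and ELAVL2 were at 0 in each, and FOCAD was at 3.35 to 4.29 CPM. Counts of RNA do not show whether the DNA is present.

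**Figure D3:**
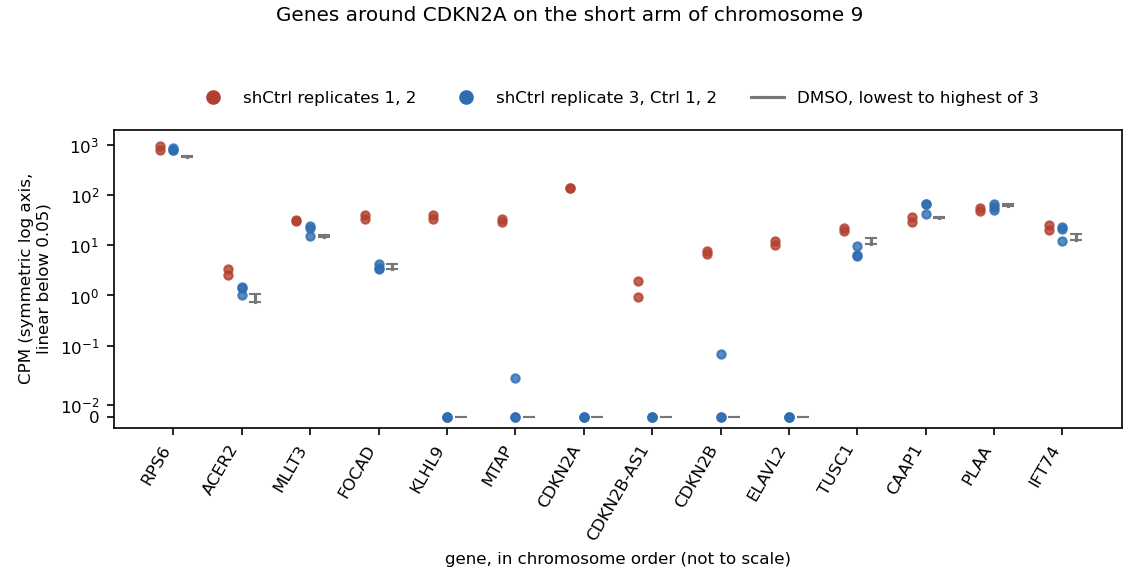
Points give the CPM of genes around CDKN2A, in chromosome order, in CDKN2A-positive (red) and CDKN2A-negative (blue) controls, and grey bars the lowest to highest of the 3 DMSO libraries; the axis is symmetric log and linear near 0. Blue points and grey bars drop to or near 0 from KLHL9 to ELAVL2 and rejoin the red points at both ends.

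The 8 highest log2 ratios among all parting genes averaging at least 2 in log2 CPM belonged to IRS4, UCHL1, KIF1A, ADAMTS1, GPC3, EMC10, CDKN2A and CCND2. KIF1A, an axonal kinesin, had 163 and 229 CPM against 0, 0 and 0.0345 CPM, and GPC3, a fetal heparan sulfate proteoglycan, had 167 and 158 CPM against 0.0327, 0 and 0 CPM. ADAMTS1, a secreted protease, was the most abundant of the 8, at 913 and 937 CPM against 0.163, 0 and 0.103 CPM. The 8 lowest were FABP4, SDPR, TNFRSF10D, LDB2, ADGRF5, CEMIP, GGT5 and F13A1. FABP4, a fatty acid carrier of adipocytes and endothelium, had 0 and 0.0304 CPM against 3.07, 47.2 and 64.0 CPM. TNFRSF10D, a decoy receptor for TRAIL, had 0.451 and 0.502 CPM against 43.6, 86.9 and 79.0 CPM, and ADGRF5, an adhesion receptor, had 5.05 and 5.29 CPM against 183, 635 and 596 CPM. Several of these were lowest in shCtrl replicate 3 among the CDKN2A-negative controls.

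Silence was unequal between the sets. Of 478 parting genes at 20 CPM or more in the CDKN2A-positive controls, 101 (21.1%) had no count in any CDKN2A-negative control, and the median level there was 0.46% of the higher set. Of 303 parting genes at 20 CPM or more in the CDKN2A-negative controls, none was at 0 in both CDKN2A-positive controls, and the median was 7.09% with a 5% to 95% range of 1.87% to 11.7%. The 8-fold rule itself caps this share, so the upper end is set by the choice of genes. EMC10, a subunit of an endoplasmic reticulum membrane complex made by nearly every cell, had 151 and 161 CPM in the CDKN2A-positive controls, 0 in all 3 CDKN2A-negative controls and 59.1 to 68.9 CPM in the DMSO libraries. The cathepsin gene CTSF was also at 0 in the CDKN2A-negative controls, with 18.9 and 21.9 CPM in the CDKN2A-positive controls and 33.0 to 34.4 CPM with DMSO. The CDKN2A-negative controls and the DMSO libraries, all labelled as DMSO-treated or hairpin controls of the same line, therefore differed in genes such as these. CD74, the invariant chain, was at 149 to 165 CPM with DMSO and at 0.0325 to 0.0648 CPM in the CDKN2A-negative controls, and NKX2-1 was at 0.788 to 1.55 CPM with DMSO and at 52.0 to 63.4 CPM in them, on the scale fitted over all 22 libraries.

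Of the 17 libraries in neither set, the 4 shHDAC6-1 and shHDAC6-2 libraries of replicates 1 and 2 resembled the CDKN2A-positive controls. In all 4, 1566 of the 1685 genes higher in the CDKN2A-positive controls (92.9%) exceeded every DMSO library, and 522 of the 608 lower genes (85.9%) were below every DMSO library. The share of all genes that did so was not counted, so these counts alone do not measure the resemblance. CDKN2A stood at 132.5 to 175.1 CPM, IRS4 at 465 to 641 CPM and LIN28B at 124 to 139 CPM in these 4 libraries. In the 9 DMSO, HPOB and Tubastatin A libraries, CDKN2A, IRS4 and PAX2 were at 0. Replicate 3 of each HDAC6 hairpin lay between. A subset of 78 genes at 20 CPM or more in the CDKN2A-positive controls had at most 3 counts in the CDKN2A-negative controls and in DMSO. Their median share of the CDKN2A-positive level was 87.2% to 94.9% in replicates 1 and 2 of the HDAC6 hairpins, 3.68% in shHDAC6-1 replicate 3 (quartiles 1.79% and 5.98%) and 9.99% in shHDAC6-2 replicate 3 (quartiles 6.29% and 15.5%). It was 0 in each compound library and 0.19% and 0.0834% with Nexturastat A. None of the 78 genes was at 0 in either library of replicate 3. In bulk RNA, fewer cells that make a transcript and less transcript per cell cannot be told apart. The reverse set of 263 genes of the CDKN2A-negative controls had medians of 7.58% and 7.43% in shCtrl replicates 1 and 2, 5.34% to 5.82% in the matching HDAC6 hairpin libraries, 68.6% and 65.3% in replicate 3 of the HDAC6 hairpins and 70.4% to 74.9% with DMSO. In neither shCtrl replicate 1 nor replicate 2 was any of the 263 at 0, and the lowest shares were 0.272% and 0.677%.

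**Figure D4:**
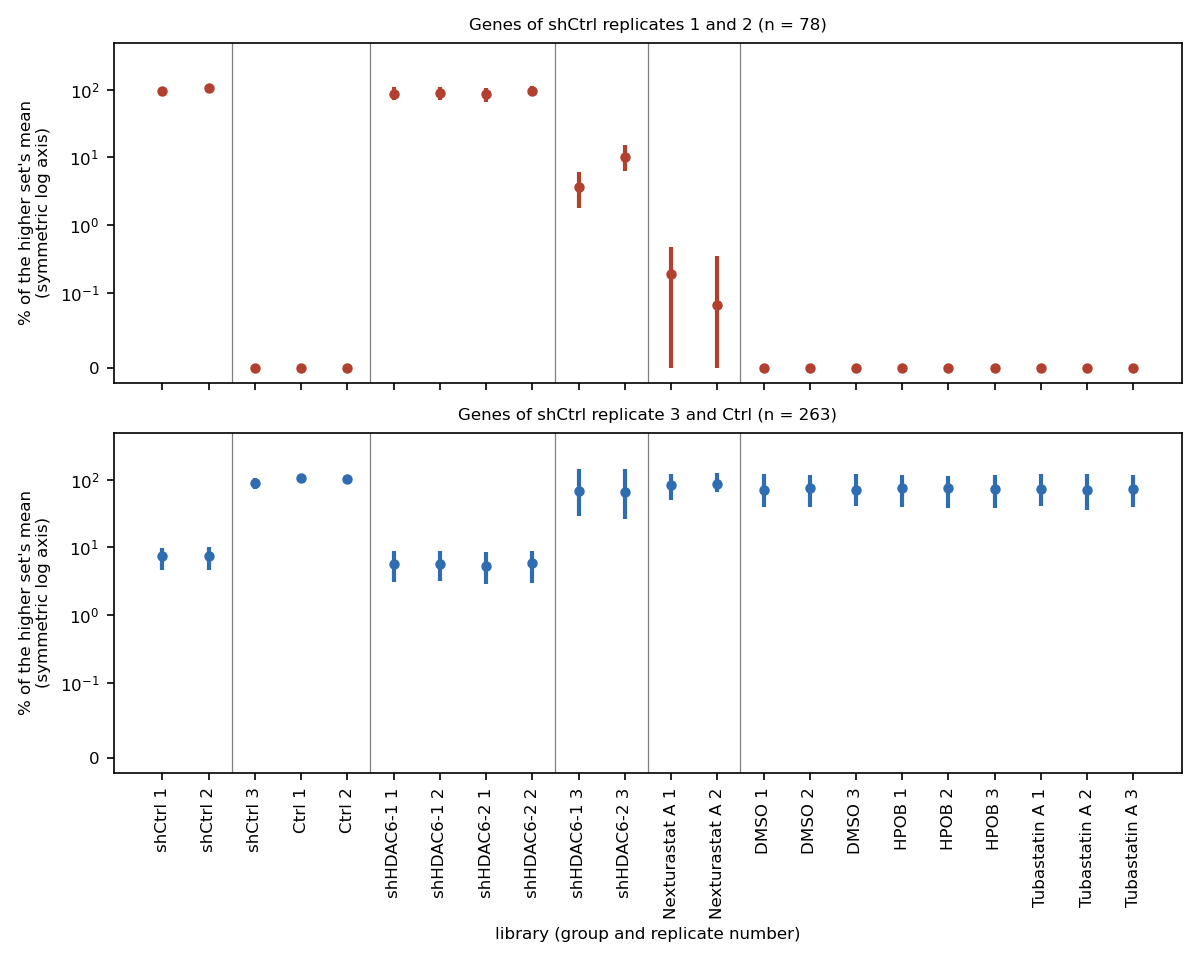
Points are medians and bars quartiles, over genes, of the level in each library as a percentage of the mean in the set that defines the genes, on symmetric log axes; the upper panel has the 78 genes of the CDKN2A-positive controls and the lower panel the 263 genes of the CDKN2A-negative controls. In the upper panel replicate 3 of the HDAC6 hairpins lies at 3.68% and 9.99%, between replicates 1 and 2 of the same hairpins at 87.2% to 94.9% and the compound libraries at 0.

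**Figure D5:**
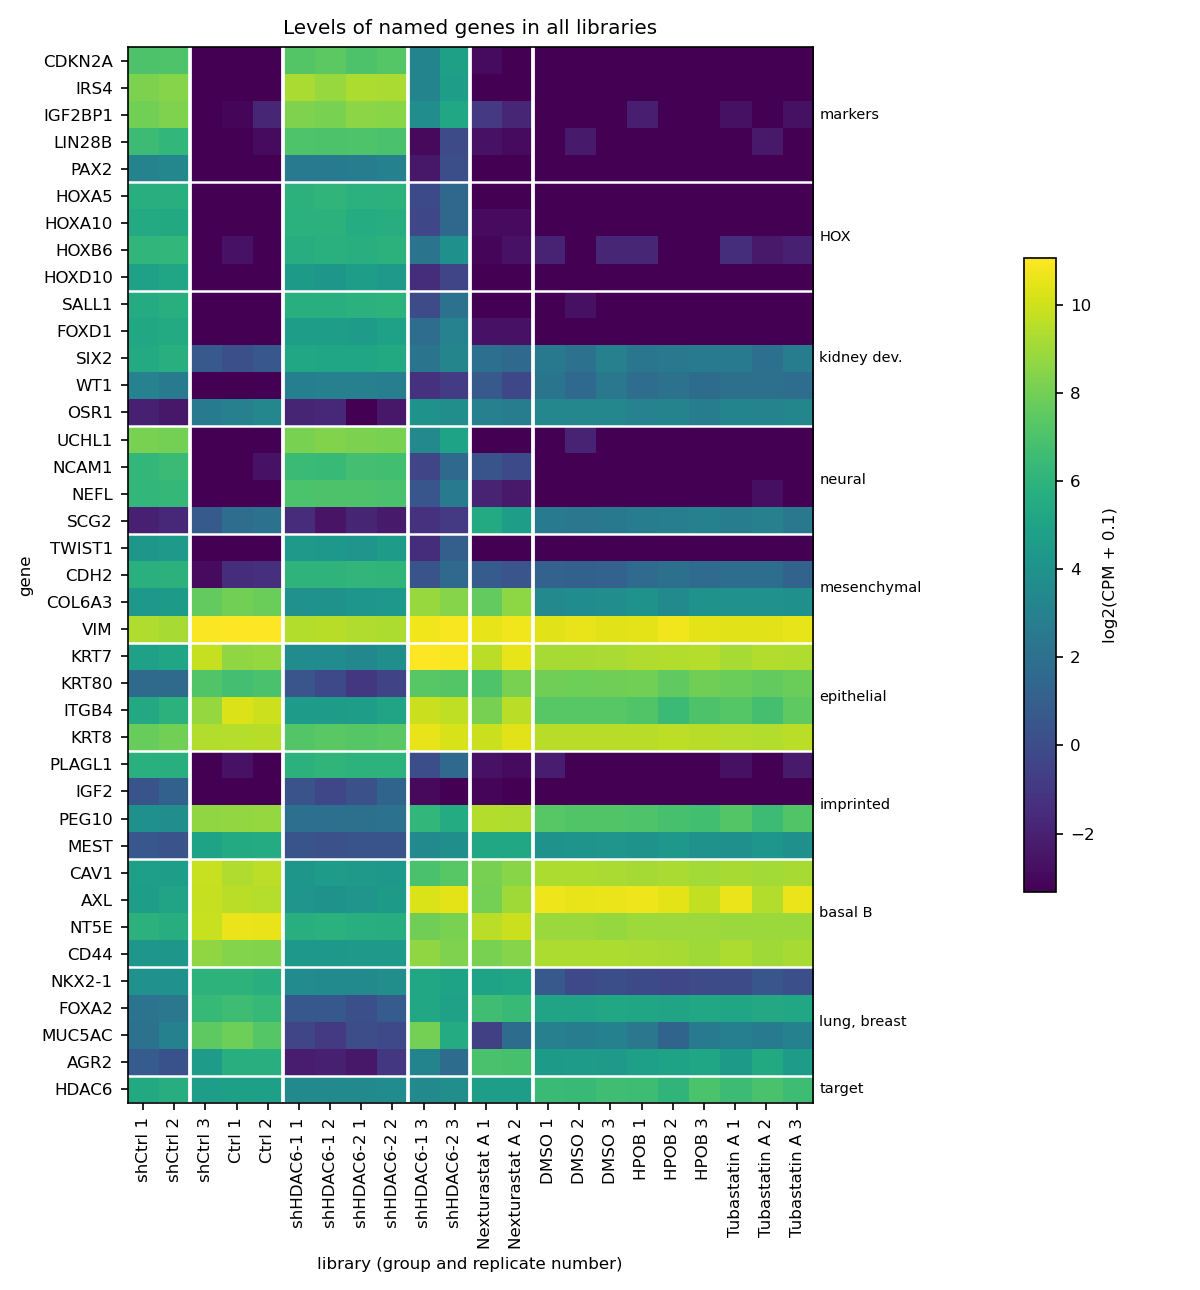
Colour gives log2 CPM, after a small constant stated on the scale, for named genes (rows, grouped by list) in all 22 libraries (columns), with white lines between sets of libraries. The 4 HDAC6 hairpin libraries of replicates 1 and 2 share the pattern of shCtrl replicates 1 and 2.

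Each control set serves a tested comparison, so the genes that part the sets were followed there. These genes were chosen by their levels in the same control libraries that form the baselines. Their p-values therefore lend no support to the division between the sets. Within replicates 1 and 2, shCtrl was compared with each HDAC6 hairpin by edgeR's quasi-likelihood test over 17702 genes with Benjamini-Hochberg adjustment. HDAC6 mRNA fell from 45.6 and 52.9 CPM to 12.8 and 12.0 CPM with shHDAC6-1, a log2 fold change of -1.99 ± 0.144 (SE; edgeR adjusted p = 9.52e-10). With shHDAC6-2 it fell to 12.4 and 14.0 CPM, a change of -1.90 ± 0.142 (SE; edgeR adjusted p = 1.77e-09). Both comparisons share the shCtrl libraries that define the CDKN2A-positive controls, so their values are set side by side and not counted as separate support. With shHDAC6-1, 5 of 38 HOX genes tested rose and 12 fell, where 15.3% of all genes rose and 15.2% fell (30.5% in all). With shHDAC6-2, 4 HOX genes rose and 10 fell, where 14.4% and 13.2% of all genes did (27.6% in all). Among the 24 mesenchymal genes tested, 1 rose and 10 fell with shHDAC6-1, and 2 rose and 8 fell with shHDAC6-2. These 24 include COL1A2, which passed the filter through the shCtrl libraries. Of 16 let-7 targets, 9 rose and 2 fell with shHDAC6-1, and 10 rose and none fell with shHDAC6-2. LIN28B rose from 97.6 and 77.6 CPM to 148 and 143 CPM with shHDAC6-1 (edgeR adjusted p = 0.00011) and to 150 and 135 CPM with shHDAC6-2 (edgeR adjusted p = 0.000183).

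ELAVL2 rose from 12.5 and 10.5 CPM to 25.7 and 24.99 CPM with shHDAC6-1, a log2 fold change of 1.15 ± 0.144 (SE; edgeR adjusted p = 2.78e-06). NEFM rose from 62.2 and 70.5 CPM to 138 and 145 CPM with shHDAC6-2 (edgeR adjusted p = 3.96e-07), as did CCND2, from 165 and 203 CPM to 405 and 379 CPM (edgeR adjusted p = 4.59e-07). ITGA8, an integrin of the early kidney, rose by 1.06 ± 0.202 and 1.12 ± 0.201 (log2, SE) with the 2 hairpins (edgeR adjusted p = 0.000361 and 0.000199). MUC5AC, AGR2 and KRT80, already low in the CDKN2A-positive controls, fell further. MUC5AC went from 4.23 and 8.44 CPM to 0.755 and 0.466 CPM with shHDAC6-1 (edgeR adjusted p = 1.06e-07) and to 1.03 and 0.879 CPM with shHDAC6-2 (edgeR adjusted p = 8.14e-07). AGR2 went from 1.86 and 1.21 CPM to 0.119 and 0.155 CPM with shHDAC6-1 and to 0.0961 and 0.439 CPM with shHDAC6-2. Both shHDAC6-1 libraries lay below the level of the filter, which AGR2 passed through the shCtrl libraries, so no test of it is given. KRT80 went from 3.22 and 3.26 CPM to 0.433 and 0.743 CPM with shHDAC6-2 (edgeR adjusted p = 8.62e-06). BCL2A1 passed the threshold with shHDAC6-1 at adjusted p = 0.0428 (edgeR), and lost it when either shCtrl library was left out. SPDEF was at 0.486 and 0.609 CPM in shCtrl replicates 1 and 2, on the scale of the sets. Its log2 fold change was -2.83 without shHDAC6-1 replicate 1 and -1.51 without replicate 2. SPDEF thus lay near the level of the filter with shHDAC6-1, and no test of it is given. When replicate 3 of all groups joined the fit, no gene passed with either hairpin by edgeR (191 and 219 genes had an unadjusted p under 0.05). Within replicates 1 and 2, the 5401 calls with shHDAC6-1 became 3563 without its replicate 1 and 3160 without its replicate 2.

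In the Nexturastat A comparison, whose Ctrl libraries belong to the CDKN2A-negative controls, 21.1% of 16678 genes rose and 15.5% fell by edgeR (36.6% in all). The 6112 calls became 1781 without Ctrl replicate 1 and 1921 without Ctrl replicate 2. Of the 28 basal B genes, all tested, 9 rose and 5 fell. The epithelial list holds members that entered the test through the treated libraries, so no count of it is given. KRT5, for example, was at 0.097 and 0.064 CPM with Ctrl and 0.447 and 0.239 CPM with Nexturastat A, on the scale fitted over all 22 libraries. MUC5B fell from 17.8 and 8.74 CPM to 0.449 and 0.919 CPM, a log2 fold change of -4.27 ± 0.487 (SE; edgeR adjusted p = 0.00223). IGFBP1 fell from 22.4 and 24.5 CPM to 3.51 and 6.06 CPM (log2 fold change -2.29 ± 0.275, SE; edgeR adjusted p = 0.00211). MUC5AC had 252 and 165 CPM with Ctrl and 0.598 and 3.40 CPM with Nexturastat A (edgeR adjusted p = 0.0117), a call lost when either Ctrl library was left out (adjusted p = 0.0983 and 0.0981, with 4.27e-09 to 0.0983 over all alternatives). Members at 0 in Ctrl entered this test only through the treated libraries, so no count or test of them is given. WT1 was at 0 in both Ctrl libraries and at 1.56 and 0.805 CPM with Nexturastat A. HOXB2, at 0.349 and 0.164 CPM, and ITGA8, at 0.416 and 0.164 CPM, were also at 0 in Ctrl. These levels were a small part of those in the CDKN2A-positive controls, where HOXB2 had 18.2 CPM in both libraries. HDAC6 itself had 30.9 and 29.6 CPM with Ctrl and 26.9 and 26.3 CPM with Nexturastat A, and did not pass the test (edgeR adjusted p = 0.328).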

How the data were processed

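The submitters' processing notes name GRCh38, Trim Galore 0.6.7, STAR 2.7.9a, featureCounts 2.0.3 and DESeq2 1.30.1, with no role or order. Annotation and strand setting were not given in the sources used here. Each library has a table of raw counts for 26485 gene symbols, as deposited by the authors. XIST, TSIX and chromosome Y genes (108 symbols) were left out of the description.

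Levels are CPM with TMM factors from edgeR 4.0.16 in R 4.3.3, over the 5 libraries for the sets, over 22 libraries where all are shown, and over the libraries of each fit for tests, so a library's values differ slightly between them. A fold against a set at 0 uses a floor of 3 counts over the set, and intervals of count ratios (95%) and floors cover counting error only, since the reads carry no molecular identifiers. Comparisons with hairpins or Nexturastat A used filterByExpr (minimum count 10, total 15) and edgeR's robust quasi-likelihood F test, adjusted by Benjamini-Hochberg over all genes tested at 0.05. The script was tested on simulated counts. Positions, promoters and microRNAs come from RefSeq GRCh38.p14.

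The sets, their members and the 18 gene lists were chosen with earlier results of these data known. Named genes are the 5 markers, HDAC6, up to 4 parting members a list in each direction, the 8 highest and 8 lowest log2 ratios, the genes around CDKN2A and up to 3 called list members in each direction of a test. Other genes named were chosen after their values were seen. Alternatives were the size factors and the Wald test of DESeq2 1.42.0, total-count scaling, other level and fold minimums, a replicate block, all 9 hairpin libraries, and leaving out each library. A few results on single genes are not reported here.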

Additional observations from a re-analysis of the deposited data

Results flagged for a closer look

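Replicate 3 of the HDAC6 hairpins entered neither set and no main comparison, yet it held several transcripts that were at or near 0 in the CDKN2A-negative controls and in the DMSO libraries. CDKN2A was at 8.83 CPM in shHDAC6-1 replicate 3 and 29.0 CPM in shHDAC6-2 replicate 3. IRS4 was at 9.08 and 26.8 CPM and IGF2BP1 at 13.1 and 38.0 CPM in the same libraries. PAX2 was at 0.0867 and 1.0 CPM. LIN28B was at 0.86 CPM in shHDAC6-2 replicate 3 and at 0.0289 CPM in shHDAC6-1 replicate 3, no higher than the 0.0322 CPM of Ctrl replicate 2. These are single libraries with no replicate of their own kind, and the source of the transcripts was not tested.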

How the results depend on the processing

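The sets hold 2 and 3 libraries, and no test bears on the division between them. Genes parting the sets numbered 1526 when the higher set had to reach 5 CPM (1068 higher in the CDKN2A-positive controls). With no minimum beyond 10 counts, 2669 were higher. The lower genes numbered 1098 at a fold minimum of 4 and 284 at 16. Leaving out each library in turn gave 1646 to 1739 higher and 562 to 667 lower genes. Scaling by total count moved the median log2 ratio of all genes from 0.02 to 0.23. Of 396 counts of list members recomputed, 362 stayed within 1.5 times their value, and of 637 log2 ratios of named genes 495 moved by less than their spread and 142 by more, with no parting gene changing sign.

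With Nexturastat A, calls numbered 3586 at a mean CPM of at least 5. Leaving out a library gave 1781 to 8922 calls, of which 1781 were without Ctrl replicate 1 and 1921 without Ctrl replicate 2. With shHDAC6-1 the range was 3160 to 5999, with 3563 calls without its replicate 1 and 3160 without its replicate 2. A lone library left in a group was assumed to vary like the others. With all 9 hairpin libraries, calls fell to 0 for shHDAC6-1 and 0 for shHDAC6-2 by edgeR, and in that fit of 9 libraries MUC5AC and SPDEF changed sign with shHDAC6-1, to 0.49 and 1.16 on the log2 scale. The DESeq2 Wald test was run on replicates 1 and 2 alone, with 5467 and 4880 calls. Of 218 log2 fold changes of named genes recomputed, 189 kept their call, 27 lost it and 2 reversed.

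A replicate block gave 6518 calls with Nexturastat A, 6163 with shHDAC6-1 and 5685 with shHDAC6-2, against 6112, 5401 and 4880 without it. Residuals of same-numbered libraries correlated at -0.046 to 0.161, so the numbers were not taken to pair libraries.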
